A study of Sus scrofa with 20 samples.

Results

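The subunits of the oxidative phosphorylation system were examined in the ileal mucosa of suckling and weaned piglets. Members were the genes whose single symbol in the platform annotation begins with NDUFA, NDUFB, NDUFC, NDUFS, NDUFV, UQCR, SDH, ATP5 or COX4 to COX8, and each gene was read from its probe set with the highest mean over all arrays. The rule found 64 genes of the 6765 genes with 1 symbol. They were 32 subunits of complex I, 4 of complex II, 2 of complex III, 7 of complex IV and 13 of complex V, together with NDUFA4, ATP5S and 4 assembly factors (NDUFAF1, NDUFAF2, NDUFAF3 and SDHAF2). All piglets were Landrace × Large white × Duroc crossbreds, and each of the 20 arrays held RNA from scraped ileal mucosa of 1 piglet. Suckling piglets, kept on maternal milk, were sampled at 14 (S14D, 3 arrays), 21 (S21D, 4 arrays), 28 (S28D, 4 arrays) and 35 (S35D, 3 arrays) days of age. Piglets weaned at 21 days onto a commercial diet were sampled at 28 (21W28D, 3 arrays) and 35 (21W35D, 3 arrays) days. The piglets were drawn from a pool that came from litters of 4 sows, so littermates were among them. Which litter each piglet came from is not stated in the sources used here, and the fits took no account of litter.

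Oxidative phosphorylation takes place in the inner mitochondrial membrane. Complex I (NADH dehydrogenase) and complex II (succinate dehydrogenase, which is also an enzyme of the citric acid cycle) pass electrons to ubiquinone, complex III passes them on to cytochrome c, and complex IV (cytochrome c oxidase) passes them to oxygen. Complex V (ATP synthase) uses the resulting proton gradient to make ATP. All members described here are encoded in the nucleus, and the enterocytes that line the villi are rich in mitochondria because absorption needs much ATP.

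Array medians lay between 5.07 and 5.34 log2 units, and each array correlated with the remaining arrays of its own group at r = 0.970 (21W35D replicate 2) or above. The tissue carried its epithelial markers, with means over 20 arrays of 14.84 for EPCAM and 14.61 for FABP2. CKM, a muscle enzyme that mucosa should lack, was at the lowest value of the data (2.08) in every array but 1 and at 8.75 in S35D replicate 3. The erythrocyte markers (3 of 7 measured, each gene centred on 20 arrays) averaged 3.54, 0.91 and -0.49 in S14D replicates 1, 2 and 3. Of these ALAS2 and AHSP ran from 2.08 to 7.80 and 7.78 over the arrays, while HBB had its lowest group mean (10.64) in S14D. Doubt attaches to the labels S35D and 21W28D. The profile of all 3 arrays with the label S35D was nearer, by correlation, to the 21W35D mean than to the S28D mean, which held for 1 of the 3 arrays with the label 21W28D. This measure does not separate the groups well, since it also held for 3 of 3 arrays of S14D, 0 of 4 of S21D, 1 of 4 of S28D and only 1 of 3 of 21W35D itself. Limma called 1570 probe sets between S28D and the arrays labelled S35D and 0 between S28D and those labelled 21W28D. The T cell markers (7 of 8 measured, with CD4 at the floor) were averaged after centring each gene on 20 arrays. Their group means were 0.06 in S28D, 0.22 in S35D, 0.74 in 21W28D and 1.09 in 21W35D. By these the arrays labelled 21W28D lay nearer to 21W35D than those labelled S35D did. By the B cell (3 of 9 measured), cell cycle (7 of 10) and epithelial (10 of 14) lists, S35D lay nearer to 21W35D. In the same order of groups the B cell means were 0.94, -0.74, 0.75 and -0.98. The cell cycle means were 0.65, -0.11, 0.47 and -0.59, and the epithelial means -0.36, 0.37, -0.15 and 0.20. The 21W35D means of these lists leaned on replicate 2. In 21W35D replicates 1, 2 and 3 the B cell values were 0.41, -3.51 and 0.17. The cell cycle values there were -0.04, -1.72 and 0.002, and the epithelial values -0.17, 0.62 and 0.16. In S35D replicates 1, 2 and 3 the B cell values were -2.20, 0.16 and -0.18. S35D also lay nearer by the plasma cell, myeloid, erythrocyte and goblet and Paneth lists. For S35D, 21W28D and 21W35D the plasma cell means were 0.06, -0.01 and 0.35 and the myeloid means 0.17, -0.08 and 0.20. The erythrocyte means were -0.37, -0.24 and -0.34, and the goblet and Paneth means 0.62, -0.36 and 0.14. By the enteroendocrine, smooth muscle and ileal enterocyte lists 21W28D lay nearer, as by the T cell markers. The smooth muscle mean of S35D leaned on replicate 3 (1.94). The labels were not settled. Counts of calls and medians over the members are therefore given with the deposited labels and with both labels exchanged, and the lists, markers and values of single members with the deposited labels. Under the exchange each value printed for S35D against S28D would belong to 21W28D against S28D, and the reverse, and each value for 21W35D against S35D to 21W35D against 21W28D, and the reverse.

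The members were bright and steady. At least 8 log2 units were reached in every array by 60 of 64 members, against 43.6% of all genes with 1 symbol. The median SD within groups was 0.159 log2 units over the members and 0.242 over all genes with 1 symbol. The distance between the highest and the lowest of the 6 group means was under 0.5 log2 units for 48 members and reached 1 log2 unit for 0. The steadiest was COX6C, a small structural subunit of complex IV, with an SD within groups of 0.0499, followed by NDUFB1 (0.0805) and ATP5G3 (0.0859). Its 20 values ran from 14.39 to 14.62. SDHC, one of the membrane anchors of complex II, had the largest SD (0.348), followed by ATP5J (0.337), which belongs to the stalk of complex V, and the assembly factor NDUFAF1 (0.315).

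The probe sets with the highest mean in each complex were NDUFB4 (13.25) in complex I, SDHD (13.34) in complex II, UQCRB (13.29) in complex III, COX6C (14.52) in complex IV and ATP5A1 (14.36) in complex V. These values serve to show which probe sets were far above the floor, since probe sets differ in affinity and their levels cannot be ranked as transcript amounts. UQCRB, which helps to build the ubiquinone-binding part of complex III, had group means from 13.25 ± 0.13 (SD, n = 4) in S28D to 13.34 ± 0.01 (SD, n = 3) in S14D. NDUFB4 had its highest group mean in S14D (13.47 ± 0.20, n = 3) and its lowest in S35D (13.09 ± 0.19, n = 3). ATP5A1 and ATP5B, the α and β subunits that form the catalytic head of ATP synthase, had group means of 14.30 to 14.50 and 14.18 to 14.46. The core complex I subunits NDUFS1 and NDUFV1, which carry electrons from NADH, had group means of 10.68 to 11.07 and 9.46 to 9.81.

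**Figure D1:**
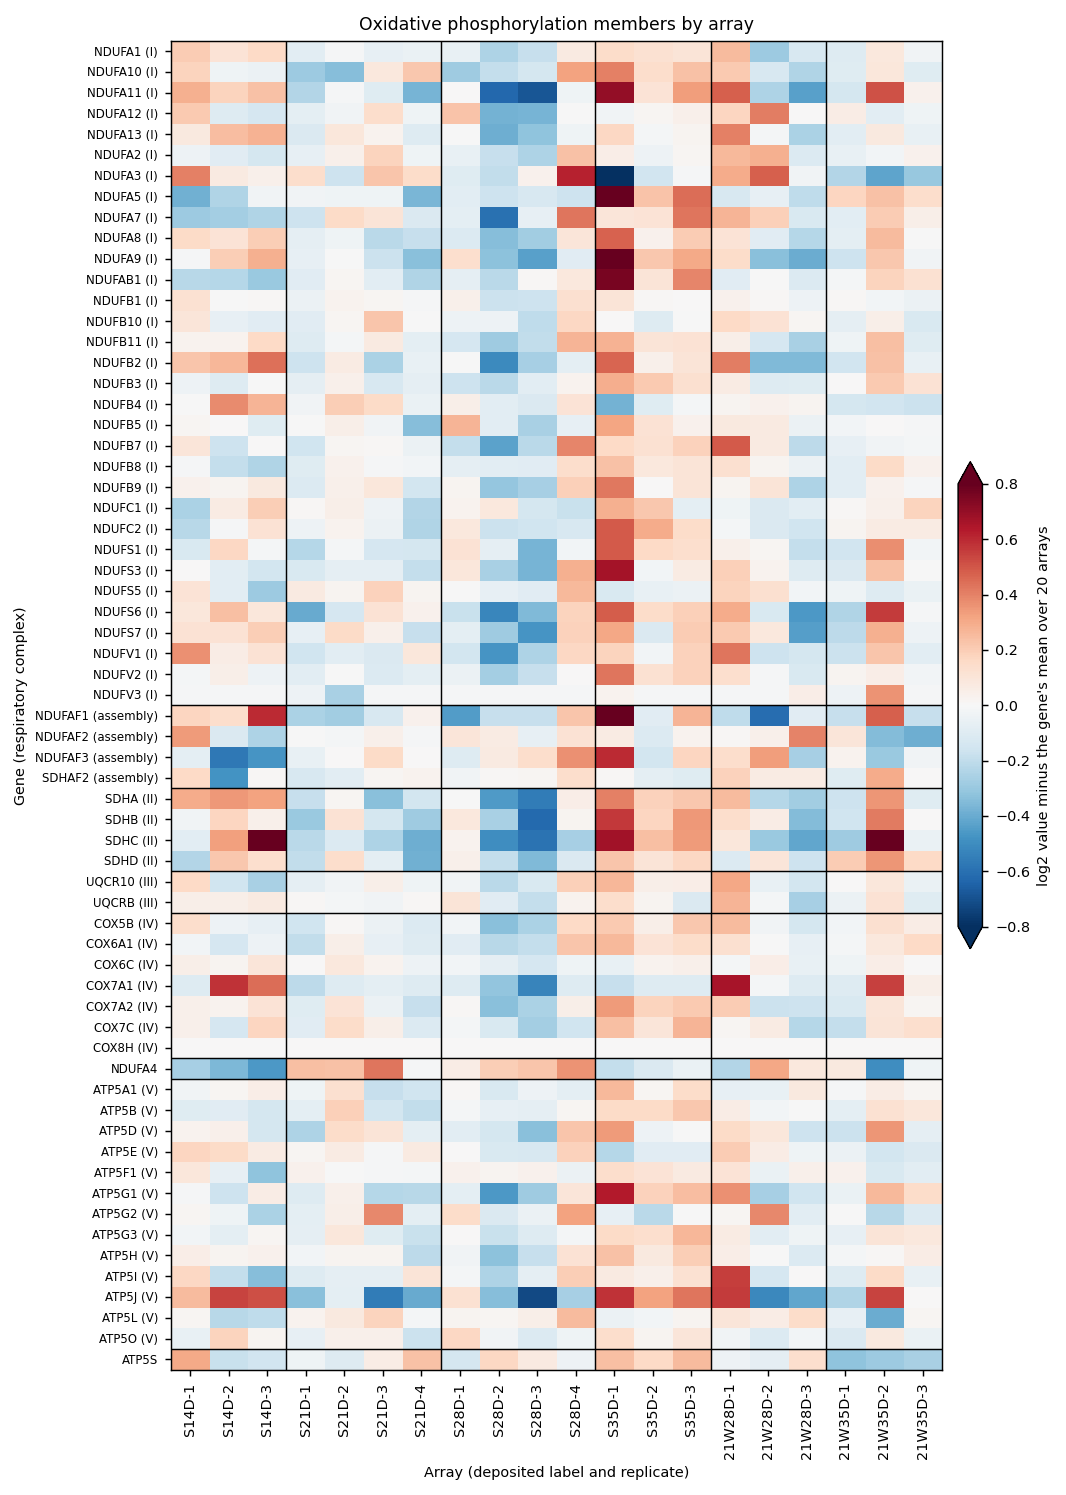
Heat map of the 64 members (rows, with the complex in parentheses) in the 20 arrays (columns, by deposited label and replicate); colour gives the log2 value minus the mean of the gene over 20 arrays. Array S35D replicate 1 is the reddest column and S28D replicates 2 and 3 the bluest, while NDUFA4 runs against most other members in the suckling arrays.

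Among the 62 members that reached 4 log2 units in every array, 38 had their highest group mean in the arrays labelled S35D and 28 had their lowest in S28D. Single arrays contributed unequally to this. S35D replicate 1 was the highest of all 20 arrays for 29 members, and S28D replicates 2 and 3 were the lowest for 18 and 15. The remaining 2 members were dim. COX8H, a heart-type subunit of complex IV, was listed at 2.08 in all 20 arrays, and NDUFV3 stayed between 3.09 and 3.71.

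COX7A1 and COX7A2 are alternative forms of the same complex IV subunit, the former being the form of heart and skeletal muscle. COX7A1 had the same value of 9.41 in 9 arrays, including S35D replicate 3, the array with CKM. Its higher values were 10.10 and 9.97 in S14D replicates 2 and 3, 10.18 in 21W28D replicate 1 and 10.07 in 21W35D replicate 2. These 4 arrays belonged to 3 groups, and each of those groups also held an array at 9.41. COX7A2 had group means from 13.41 ± 0.19 (SD, n = 4) in S28D to 13.79 ± 0.09 (SD, n = 3) in the arrays labelled S35D.

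The comparison of S21D with S14D addressed the last week before the age of weaning. Of the 7 pairwise comparisons it had the most calls over the whole array. Limma called 1 of 64 members at an adjusted p under 0.05, against 14.9% of all 23999 probe sets (7.27% higher and 7.63% lower) and 20.3% of the genes with 1 symbol. The median difference was -0.06 log2 units over the members and 0 over all probe sets, and 9 of 64 members had an unadjusted p under 0.05, against 6822 of the 23999 probe sets. The count of calls ran from 0 to 6 over the alternatives tried. In this bulk tissue, fewer cells of a type and less RNA per cell cannot be told apart.

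The member that rose was NDUFA4, first described with complex I and now placed in complex IV. Its values were 12.62, 12.53 and 12.43 in S14D and 13.13, 13.12, 13.31 and 12.87 in S21D. All S21D arrays lay above all S14D arrays. The difference was 0.59 log2 units (SE 0.14, limma adjusted p = 0.0166). The level was 13.09 ± 0.12 (SD, n = 4) in S28D, 12.77 ± 0.07 (n = 3) in S35D, 12.94 ± 0.27 (n = 3) in 21W28D and 12.73 ± 0.31 (n = 3) in 21W35D. Of 9 B cell markers 3 were measured and 2 rose at this step. Their mean per array, each gene centred on 20 arrays, ran from -3.69 to 0.20 in S14D and from 0.63 to 1.17 in S21D. Its group means lay in nearly the same order as those of NDUFA4: -1.50 in S14D, 0.92 in S21D, 0.94 in S28D, -0.74 in S35D, 0.75 in 21W28D and -0.98 in 21W35D. Of 10 cell cycle genes 7 were measured and 6 rose, with a mean per array from -2.93 to 0.11 in S14D and from 0.27 to 0.83 in S21D. The order of the groups was not particular to B cell markers. The cell cycle group means lay in the same order as theirs. The means of 14 glycolytic and 5 reference genes were also lowest in S14D. They too were higher in S21D, S28D and 21W28D than in S35D and 21W35D. Of 7 measured T cell markers 4 rose, of 3 plasma cell markers 1 rose, of 5 enteroendocrine markers 3 fell and of 7 smooth muscle markers 1 fell. The part of these cells in the NDUFA4 values was not tested. Without S14D replicate 2, S14D replicate 3 or S21D replicate 3 the adjusted p of NDUFA4 was 0.0594, 0.0911 or 0.0532, with differences of 0.59, 0.54 and 0.52. In each of these fits 0 members were called, and without S14D replicate 1 limma called 4.

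The subunits of succinate dehydrogenase had lower means in S21D, without passing the test. SDHA, its flavoprotein, was at 11.99, 12.04 and 12.02 in S14D and at 11.51, 11.71, 11.36 and 11.55 in S21D. The groups did not overlap, and the difference was -0.49 (SE 0.17, adjusted p = 0.0680 with limma). SDHC was at 10.89, 11.30 and 11.89 in S14D and at 10.76, 10.87, 10.73 and 10.59 in S21D, a difference of -0.63 (SE 0.26, adjusted p = 0.126 with limma). SDHB, the iron-sulfur subunit, and SDHD, the second anchor, differed by -0.21 and -0.17 with overlapping arrays. The median over the 4 genes of complex II was -0.35, beside -0.07 for complex I, -0.04 for complex IV and -0.04 for complex V.

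The lowest difference of all was that of ATP5J, with 11.66, 11.95 and 11.93 in S14D and 11.08, 11.33, 10.85 and 11.01 in S21D. Its difference was -0.78 (SE 0.25, limma adjusted p = 0.0525), and its groups did not overlap. A second, dim probe set of ATP5J, with a mean of 2.99, differed by 0.48 (limma adjusted p = 0.150). After NDUFA4, the highest was NDUFAF3, an assembly factor of complex I, at 9.13 ± 0.26 (SD, n = 3) in S14D and 9.53 ± 0.09 (SD, n = 4) in S21D (0.40, limma adjusted p = 0.159). Groups did not overlap for 3 members that were higher in S21D and 9 that were lower, against 14.1% and 13.8% of all probe sets. The dimmest of 3 probe sets of NDUFS3, with a mean of 3.44, differed by -1.81 (limma adjusted p = 0.00287), while its brightest probe set differed by -0.04.

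The genes that deliver fuel to the respiratory chain were listed beside its subunits. Of 14 genes of mitochondrial β-oxidation, which feeds electrons from fatty acids, 5 fell and 0 rose. The largest falls were those of DECR1 (-1.50, SE 0.31), HADH (-1.27, SE 0.23) and ACADS (-1.24, SE 0.20), with limma adjusted p-values of 0.00675, 0.00315 and 0.00123. Of 14 glycolytic genes 6 rose and 0 fell (ALDOC by 1.46, HK1 by 1.16, TPI1 by 0.80 and 3 others by less). Of 16 genes of the citric acid cycle IDH2 rose by 0.37 while PDHA1 (-0.92) and SUCLG2 (-0.72) fell. Of 12 electron carriers and other assembly genes ACAD9 (-1.44) and ETFB (-0.72), which take part in complex I assembly and in electron transfer from β-oxidation, fell. Among 13 carriers, pores and import genes VDAC2 (1.95) and TOMM22 (0.53) rose and the ADP/ATP carrier SLC25A4 (-1.71) fell, and among 7 biogenesis genes PPRC1 (0.94) and the mitochondrial DNA factor TFAM (0.25) rose. FABP6, the ileal bile acid binding protein and the 1 ileal enterocyte marker measured of 5, rose by 1.98 (limma adjusted p = 0.000145). Of the 10 general epithelial markers measured 0 were called by limma, 4 had an unadjusted p under 0.05, and their mean per array ran from -0.03 to 0.35 in S14D and from -0.37 to 0.10 in S21D. Whether the shares called in these lists differ from that of the members was not tested.

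Between S21D and S28D the members did not measurably differ. Limma called 0 of 64 members and 1 of 23999 probe sets (0.00417%), and 1 member (COX6C, -0.08) had an unadjusted p under 0.05. The median difference was -0.03. Groups did not overlap for 0 members in either direction, where 0.496% of all probe sets were higher and 0.679% lower without overlap. The highest values were those of NDUFAF3 (0.09) and SDHAF2 (0.07) and the lowest those of NDUFA13 and NDUFA11 (both -0.16). The data bounded most differences closely: the 95% confidence interval of the difference lay within 0.5 log2 units of zero for 57 of the 62 members that were not dim, and within 1 log2 unit for all 62.

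The comparison of the arrays labelled S35D with S28D gave the most member calls of the 7 pairwise comparisons, all of them higher in S35D. Limma called 7 of 64 members (10.9%), against 6.54% of all probe sets (3.53% higher and 3.01% lower) and 9.05% of the genes with 1 symbol. Of the 7, 6 belonged to complex I and 1 to complex V. The median difference was 0.24 over the members and 0 over all probe sets, and 53 members (82.8%) lay above zero, against 44.3% of the genes with 1 symbol. An unadjusted p under 0.05 was found for 30 members, for 5600 of all 23999 probe sets and for 2130 of the 6765 genes with 1 symbol.

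NDUFA5, an accessory subunit of the matrix arm of complex I, was at 10.61, 10.52, 10.56 and 10.53 in S28D and at 11.54, 10.92 and 11.14 in the arrays labelled S35D. It rose by 0.64 (SE 0.12, 1.56-fold, limma adjusted p = 0.0137), with all S35D arrays above every array of the other groups but 21W35D replicate 2. The latter stood at 10.93, just over S35D replicate 2. NDUFAB1, the mitochondrial acyl carrier protein, which also serves fatty acid and lipoate synthesis, was at 12.64, 12.49, 12.72 and 12.79 in S28D and at 13.47, 12.81 and 13.10 in S35D. Its lowest S35D array was just above its highest S28D array, and the difference was 0.47 (SE 0.12, limma adjusted p = 0.0324). NDUFA9 was at 11.00, 10.55, 10.44 and 10.78 against 11.73, 11.09 and 11.18, a difference of 0.64 (SE 0.18, limma adjusted p = 0.0478). For these 3 genes S35D replicate 1 was the highest of all arrays.

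NDUFV2, an iron-sulfur subunit of the NADH-oxidizing module, was at 11.84, 11.61, 11.70 and 11.89 in S28D and at 12.31, 12.01 and 12.07 in S35D (difference 0.37, SE 0.08, limma adjusted p = 0.0181). Its other probe sets were dimmer and the second, with a mean of 6.21, differed by -0.11; with the mean of all its probe sets the difference was 0.15 and the adjusted p 0.278. NDUFB3, an accessory subunit of the membrane arm, was at 12.72, 12.67, 12.80 and 12.91 against 13.18, 13.09 and 13.01 (difference 0.32, SE 0.07, limma adjusted p = 0.0176). A second NDUFB3 probe set was also called (0.45, limma adjusted p = 0.0209). NDUFC2, another membrane arm subunit, was at 12.53, 12.28, 12.29 and 12.33 against 12.94, 12.75 and 12.60 (difference 0.40, SE 0.09, limma adjusted p = 0.0255). No array of S28D reached any array of S35D for these genes.

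**Figure D2:**
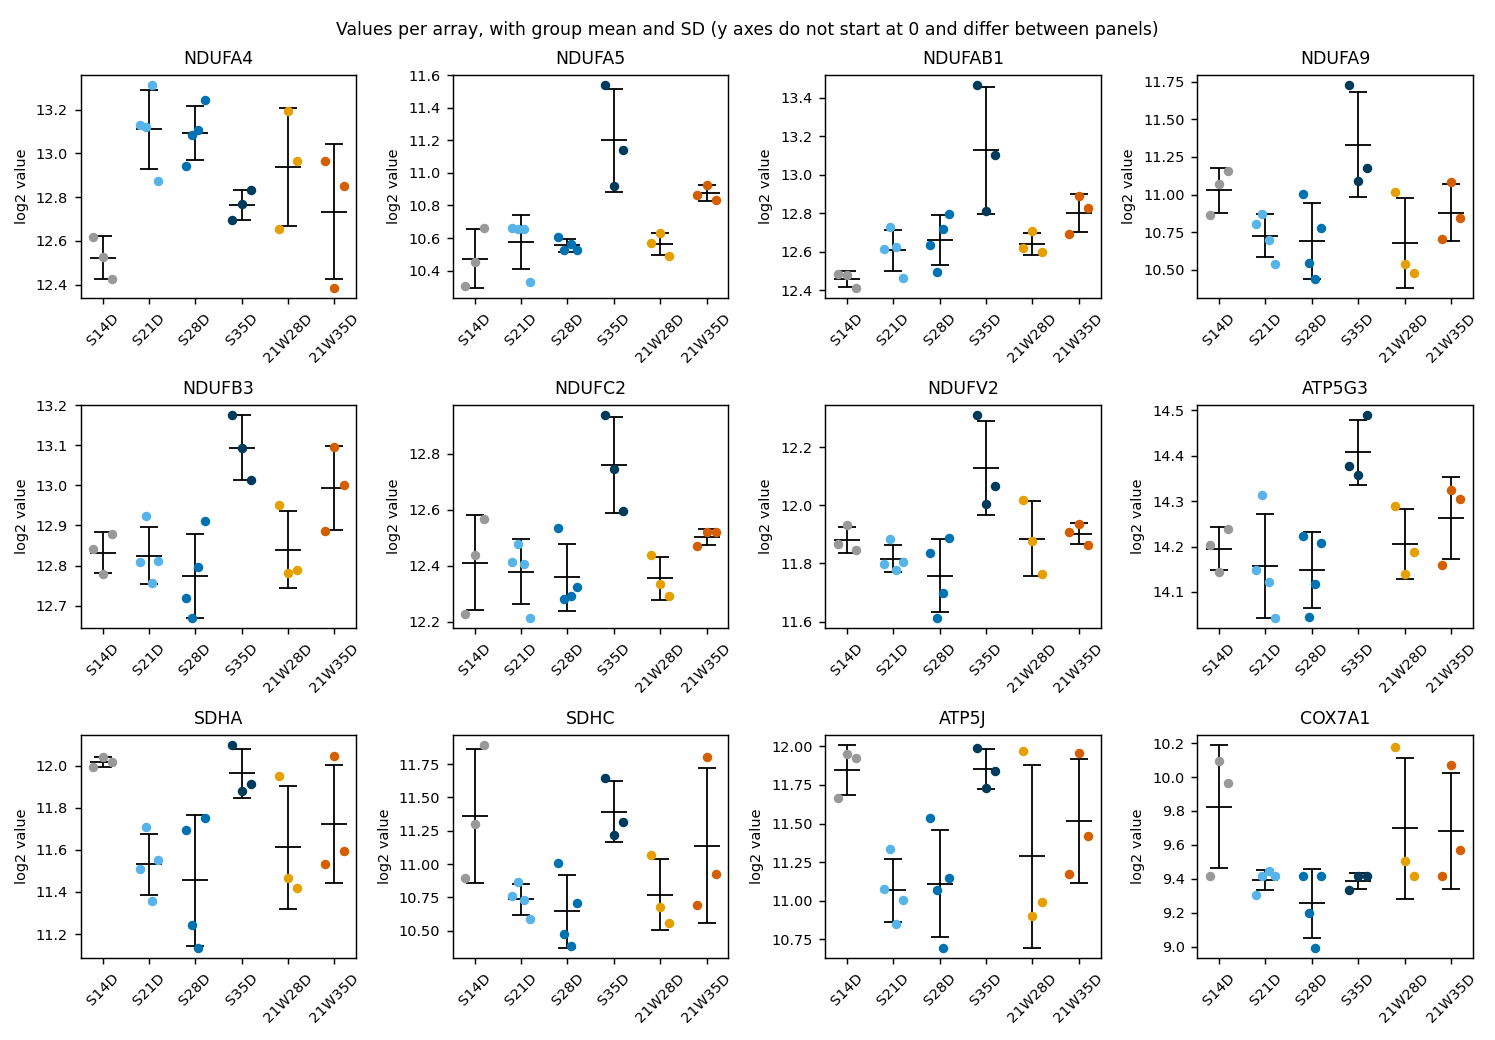
Log2 values of 12 members in each array (points, by deposited label), with horizontal bars for the group mean and SD; the y axes differ and do not start at 0. NDUFA4 is low in S14D, the 7 genes called between S28D and S35D have their highest group mean in the arrays labelled S35D, and COX7A1 is high in 4 single arrays of 3 groups.

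ATP5G1, ATP5G2 and ATP5G3 encode the same mature protein, subunit c of the membrane rotor of complex V, behind different import peptides. ATP5G3 was at 14.22, 14.04, 14.12 and 14.21 in S28D and at 14.38, 14.36 and 14.49 in S35D and rose by 0.26 (SE 0.06, limma adjusted p = 0.0327). ATP5G1 was at 12.54, 12.16, 12.33 and 12.71 against 13.25, 12.80 and 12.86, a difference of 0.54 (SE 0.16, limma adjusted p = 0.0612). ATP5G2 was at 12.31, 12.05, 12.12 and 12.49 against 12.10, 11.96 and 12.16, a difference of -0.17 (limma adjusted p = 0.534). The first 2 pairs of groups did not overlap and the last did. ATP5A1 and ATP5B differed by 0.20 and 0.21 (limma adjusted p = 0.0918 and 0.0914).

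All 4 complex II genes had higher values in every S35D array than in every S28D array, and none passed the test. SDHA was at 11.69, 11.24, 11.13 and 11.75 in S28D and at 12.10, 11.88 and 11.91 in S35D (0.51, limma adjusted p = 0.0839). SDHB differed by 0.55, SDHC by 0.75 and SDHD by 0.32, with adjusted p-values of 0.0820, 0.0973 and 0.148 from limma. A second SDHB probe set, with a mean of 11.51, differed by 0.25 (limma adjusted p = 0.34). A second, dimmer SDHA probe set, with a mean of 6.11, differed by 0.94 (limma adjusted p = 0.24). The median of complex II was 0.53, beside 0.28 for complex I, 0.24 for complex IV, 0.19 for complex V and 0.11 for the 2 genes of complex III. COX7A2 (0.38, limma adjusted p = 0.0517) came nearest to a call in complex IV.

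Not every member followed. NDUFA4 was at 12.94, 13.08, 13.11 and 13.24 in S28D and at 12.70, 12.77 and 12.83 in S35D, and the groups did not overlap in this opposite direction (-0.33, SE 0.14, limma adjusted p = 0.180). NDUFA3, a small membrane arm subunit, had the lowest difference (-0.42, limma adjusted p = 0.246), with 9.66 in S35D replicate 1 and 10.33 and 10.47 in the other arrays. In all, 22 members did not overlap and were higher in S35D, where 8.88% of probe sets did so, and 1 was lower, where 13% did so.

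**Figure D3:**
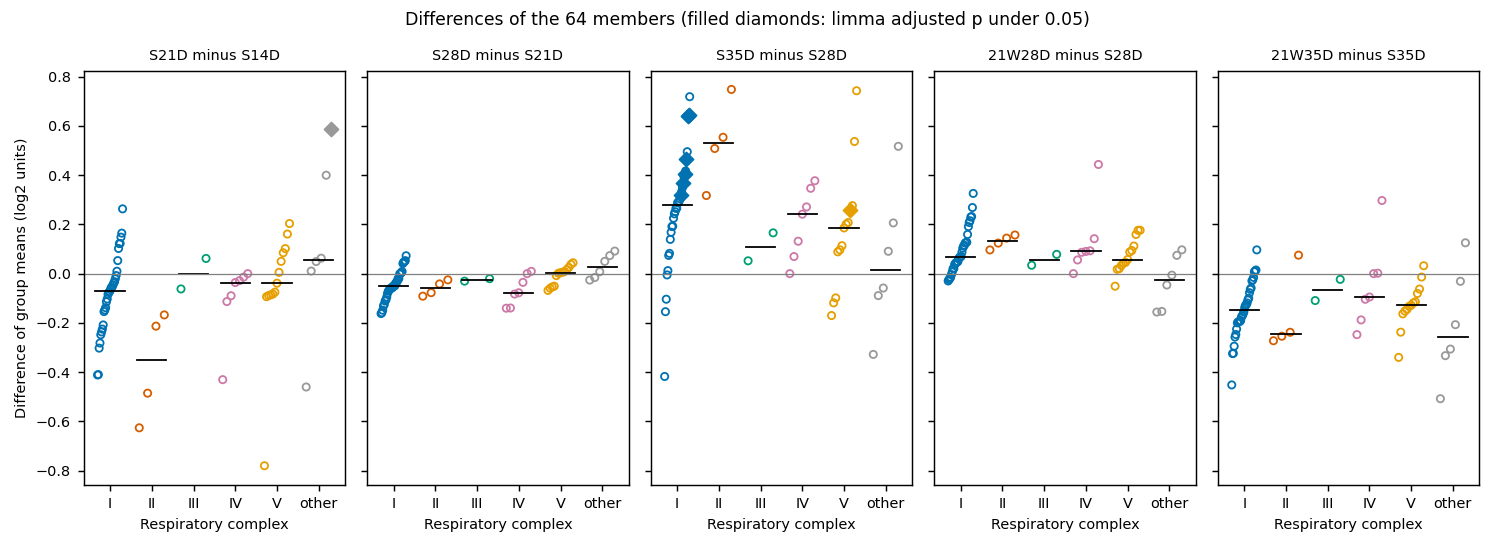
Difference of group means (log2 units, y axis) of each of the 64 members in 5 comparisons (panels), by respiratory complex (x axis; "other" holds NDUFA4, ATP5S and the 4 assembly factors). Filled diamonds are genes with a limma adjusted p under 0.05 and lines are medians; the clouds sit near zero for S28D against S21D and above it for S35D against S28D.

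The neighbouring metabolic lists were also called in the comparison of S35D with S28D. Among the electron carriers and other assembly genes 4 of 12 rose, among them ETFA (0.72), CYCS, which is cytochrome c (0.66), and ETFB (0.57). Of the citric acid cycle 4 of 16 rose, among them SUCLG2 (0.74), SUCLA2 (0.70) and IDH3A (0.69). The ADP/ATP carrier SLC25A5 rose by 0.62 and the glycolytic PKM fell by 0.61. Of β-oxidation 0 of 14 and of biogenesis 0 of 7 were called by limma, with 6 and 2 genes at an unadjusted p under 0.05.

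Cell type markers moved in this comparison too. Of 14 epithelial markers listed 10 were measured, and their mean after centring each gene on 20 arrays ranged from -0.75 to -0.05 in S28D and from 0.26 to 0.55 in S35D, with 3 of the 10 called higher. The B cell markers, of which 3 of 9 were measured, ranged from 0.33 to 1.24 in S28D and from -2.20 to 0.16 in S35D. The same mean over the 64 members was -0.02, -0.20, -0.20 and 0.09 in S28D and 0.25, 0.05 and 0.13 in S35D, so that S28D replicate 4 lay above S35D replicate 2. The smooth muscle list (7 of 9 measured, with MYLK at the floor) stood at 1.94 in S35D replicate 3 and at 0.07 and -0.22 in the other S35D arrays. The part of these cell types in the members' values was not tested.

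The calls rested on few arrays. Without S35D replicate 1, limma called 0 members (the differences of the 7 genes were then 0.28 to 0.47). Without S28D replicate 2 it called 1, without S28D replicate 3 it called 3 and without S35D replicate 3, the array with CKM and the high smooth muscle value, it called 4. Fitting only the S28D and S35D arrays gave 0 calls. Once the S35D and 21W28D labels were exchanged, 0 members were called between S28D and S35D and the median difference was 0.08. The same 7 calls then stood between S28D and 21W28D, with a median of 0.24.

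**Figure D4:**
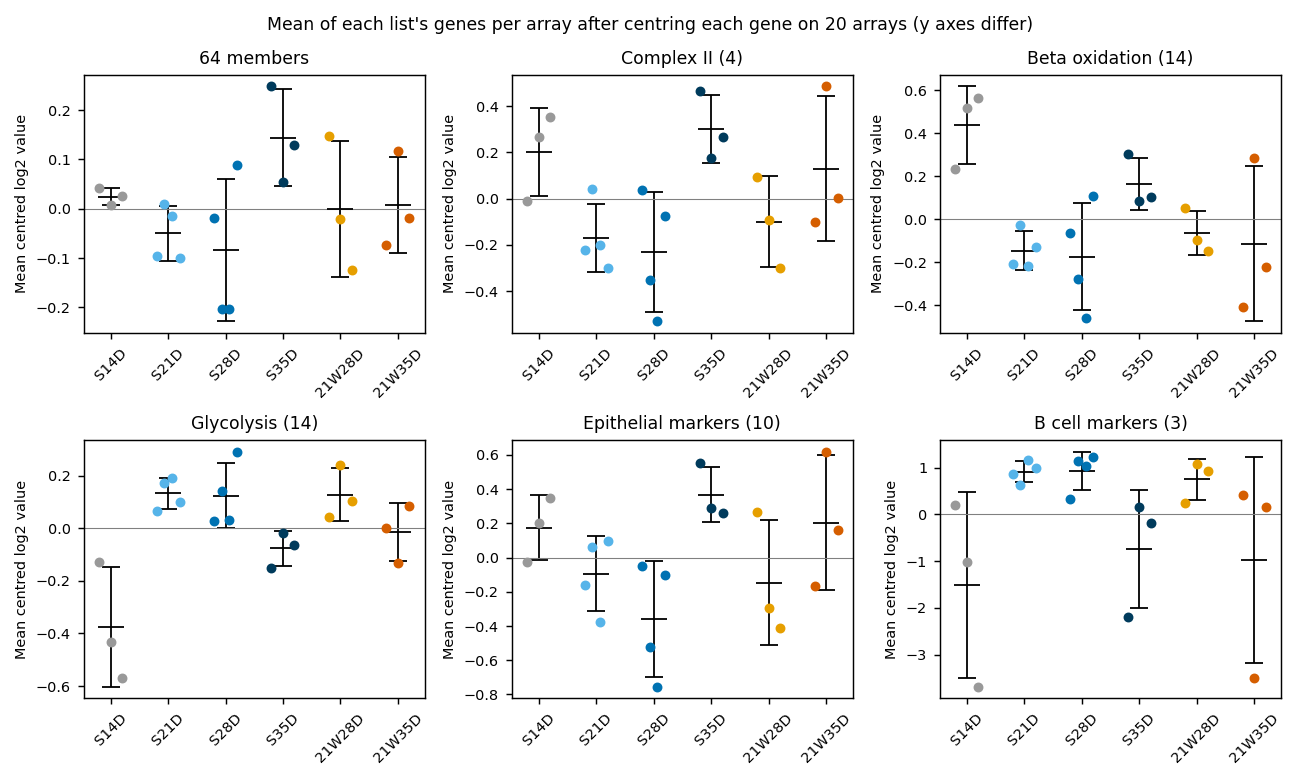
Mean of each list's genes per array (points, by deposited label; each gene centred on 20 arrays, log2 units) with the group mean and SD (bars), for the 64 members, complex II, β-oxidation, glycolysis, epithelial markers and B cell markers. On average, epithelial markers and members both stand higher in S35D than in S28D and the B cell markers stand lower; the y axes differ.

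Weaning was assessed by setting weaned against suckling piglets. Under the deposited labels 0 of 64 members were called in 21W28D against S21D and 0 of 64 against S28D, where limma also called 0 of all probe sets (0%). The members at an unadjusted p under 0.05 numbered 0 and 2, and all probe sets 606 and 451. The median differences were 0.04 and 0.08. Groups did not overlap for 1 member against S21D, higher in 21W28D, where 1.68% of probe sets were higher and 1.37% lower in this way. Against S28D they did not overlap for 0 members, where 0.825% and 0.604% were higher and lower. Against S28D the highest values were those of COX7A1 (0.44) and NDUFA12 (0.33), and the lowest those of NDUFA4 (-0.16) and NDUFAF1 (-0.15). Against S21D they were COX7A1 (0.30), ATP5J (0.22), NDUFA4 (-0.17) and NDUFAF1 (-0.15). The 95% interval lay within 0.5 log2 units of zero for 52 of 62 members against S21D and 45 of 62 against S28D, and within 1 log2 unit for all 62 in both. With exchanged labels 6 members were called higher against S21D, where 3.57% of all probe sets were called, and 7 against S28D, where 6.54% were.

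At 35 days 0 of 64 members were called in 21W35D against S35D (0.0458% of all probe sets), and 8 members had an unadjusted p under 0.05, as did 1406 of all probe sets. The median was -0.13, and 54 members lay below zero. These signs are not independent, since all members share the same arrays, S35D replicate 1 being the highest of all for 29 members. ATP5S, which is linked to the coupling of ATP synthase and is not a core subunit, had the lowest difference. It was at 9.44, 9.36 and 9.45 in the arrays labelled S35D and at 8.88, 8.91 and 8.94 in 21W35D, and the groups did not overlap (-0.51, SE 0.12, limma adjusted p = 0.260). A second probe set of ATP5S with a like mean (9.18) differed by -0.22. NDUFA9 followed (-0.45, limma adjusted p = 0.810), while COX7A1 (0.30) and SDHAF2 (0.13) were highest. In 13 members the weaned arrays lay wholly below the suckling ones, where 2.66% of all probe sets did so, and in 0 members wholly above, where 3.48% did so. Of the 7 measured T cell markers 7 lay above zero in this comparison and 1 rose (limma adjusted p = 0.0359), and their mean per array ran from 0.01 to 0.40 in S35D and from 0.47 to 1.42 in 21W35D. All 7 measured cell cycle genes and 6 of 7 smooth muscle markers lay below zero, with 0 calls by limma and 0 at an unadjusted p under 0.05. The part of these cells in the members' values was not tested. With exchanged labels the median was 0.02.

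Between both weaned groups, 21W35D against 21W28D, 0 of 64 members were called (0.0792% of all probe sets), with 8 at an unadjusted p under 0.05 and a median of 0.02. NDUFA3 (-0.57) and NDUFAF2 (-0.36) were lowest and SDHC (0.37) and NDUFAF1 (0.34) highest. NDUFA3 was at 10.78, 10.96 and 10.45 in 21W28D and at 10.24, 10.06 and 10.18 in 21W35D, without overlap (limma adjusted p = 0.489). In all 4 members were higher and 6 lower without overlap, where 4.52% and 5.1% of probe sets were. Exchanging the labels turned the median to -0.13.

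Whether weaning acted differently at 35 and at 28 days was tested as an interaction. It called 0 of 64 members and 0 of all probe sets (0%), with 3 members at an unadjusted p under 0.05 (NDUFV2, ATP5S and ATP5G3) and 610 probe sets. The median was -0.23, and 60 members lay below zero. All members were read from the same arrays, so their signs are not independent of each other. The lowest values were those of ATP5J and NDUFA11 (both -0.52), and the highest those of NDUFA4 (0.12) and NDUFV3 (0.08). This contrast holds the S35D and 21W28D arrays with the same sign, so that exchanging their labels leaves it as it is.

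Over the 4 suckling ages together, an F test called 10 of 64 members, against 20.6% of all probe sets. They were NDUFA5, NDUFAB1, NDUFB3, NDUFV2, NDUFC2 and NDUFA9 of complex I, SDHA of complex II, ATP5G3 and ATP5J of complex V, and NDUFA4. The strongest was NDUFA5 (limma adjusted p = 0.00432), with group means of 10.47 ± 0.18 (SD, n = 3), 10.58 ± 0.16 (n = 4), 10.56 ± 0.04 (n = 4) and 11.20 ± 0.32 (n = 3) from S14D to S35D. SDHA and ATP5J had another course, with 12.02 and 11.85 in S14D, 11.53 and 11.07 in S21D, 11.45 and 11.11 in S28D and 11.96 and 11.85 in S35D. The count was 3 without S35D replicate 1, 5 without S14D replicate 2 or 3, and 6 without S21D replicate 1 or 3, S28D replicate 3 or S35D replicate 3. With exchanged labels it was 1, NDUFA4. With the mean of a gene's probe sets, the adjusted p from limma was 0.142 for SDHA, 0.274 for ATP5J and 0.375 for NDUFV2.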

How the data were processed

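RNA of scraped ileal mucosa was hybridised to 20 Affymetrix porcine expression arrays, 1 piglet per array. The deposited values were log2 intensities per probe set, which the authors obtained with gcRMA (background correction, quantile normalization and summary of the probes) from scans read with GCOS 1.2, as the submitters' processing notes name it. Quantile normalization makes the arrays share 1 distribution, so a shift common to all genes cannot be seen, and 41.6% of the values lay within 1 log2 unit of the lowest value (2.08). No depth exists for arrays, and the number of arrays limits the precision.

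The 124 control probe sets were dropped and the other 23999 fitted in limma 3.58.1 (R 4.3.3) with 1 mean per group over all 20 arrays and moderated variances. p-values were adjusted by Benjamini-Hochberg over all of them, and an adjusted p under 0.05 was a call, with no fold minimum. Each value is a difference of log2 group means with its SE. Gene names came from the platform annotation, in which 10069 probe sets had 1 symbol, 198 several and 13732 none, and all 64 member symbols matched a current gene symbol. The 64 members held 82 probe sets. Group means per list are means of genes centred on 20 arrays. Members, gene lists and tests were chosen with earlier results of these data known.

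Members were named by rule. Named were those called where at most 8 were, and the 2 largest and the 2 smallest differences where none was called. The brightest of each complex, isoform partners and core subunits were also named. Members whose probe sets disagreed in direction were named only where 1 of those probe sets was called. The rule further took the largest and smallest SDs within groups, and those under 4 log2 units in every array. Others among the named (the complex II genes, the subunit c genes, COX7A2, NDUFA3 and NDUFA11) were added after their values were seen. From other lists at most 3 called genes per list and comparison were named. The alternatives tried were leaving out dim probe sets, a 2-fold minimum, 1 probe set or the mean of probe sets per gene, and only the groups compared. Others were a robust variance model with an intensity trend (statmod 1.5.0 was used with limma), and median or quantile normalization again. The replicate number was tried as a fixed block in the design. Subunits only, exchanged labels, the methods' t-test, and leaving out each array were also tried. Python 3.11.15 with matplotlib 3.10.9 drew the plots. The scripts were tested on simulated data.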

Additional observations from a re-analysis of the deposited data

Results flagged for a closer look

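In 67 sets of 4 arrays the highest or lowest array was checked for its gap to the nearest array. The gap was taken as a share of the group's range, and in 3 sets an array stood apart. The sets were S21D or S28D values of named members, or means over all members, a complex or the assembly factors. Since the means hold the named members, the sets overlap. Chance marks about 1 in 20 such groups. NDUFA5 in S21D replicate 4 was at 10.33 with its nearest array at 10.66. NDUFC2 in S28D replicate 1 was at 12.53 with the nearest at 12.33. The dim NDUFV3 was at 3.09 in S21D replicate 2 with the nearest at 3.31. Groups of 3 arrays were not examined in this way.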

How the results depend on the processing

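Over all alternatives, 310 of the counts and medians stayed within 1.5 times the reported count or within 0.103 log2 units (1 SD of the members' mean per array within groups) of the reported median, and 38 moved further. Of the values for named members 1597 kept their side of the threshold, 135 lost a call, 14 gained one and 3 lost a call with a changed sign. Changes of sign in members called in neither fit were counted among the 1597. For S21D against S14D the members called numbered 3 (1 higher, 2 lower) with dim probe sets left out, with 1 probe set per gene and with median centring, 6 (1 higher, 5 lower) with only both groups and with the methods' t-test after Benjamini-Hochberg, and 0 with a 2-fold minimum and with the methods' t-test and fold rule. Leaving out 1 array gave 0 to 4. For S35D against S28D they numbered 12 with 1 probe set per gene and 0 with a 2-fold minimum, with only both groups, with the methods' t-test under either rule and with exchanged labels, and leaving out 1 array gave 0 to 10. With exchanged labels NDUFA9 (-0.0150), NDUFAB1 (-0.0199) and NDUFC2 (-0.00399) reversed in this comparison and the medians were 0.0762 here, 0.20 for 21W28D against S21D (6 calls), 0.24 against S28D (7 calls), 0.0204 for 21W35D against S35D and -0.13 for 21W35D against 21W28D. The F test over ages called 1 with exchanged labels and 3 to 14 on leaving out 1 array. The cause was not tested, except that a 2-fold minimum, also in the methods' fold rule, and exchanged labels change the calls by construction. As 0 members had group means 1 log2 unit apart, either 2-fold rule had to give 0 member calls.

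With the replicate number as a block, 3 members were called between S28D and S35D and 5 in the F test over ages. The numbers did not pair the arrays: of 46 pairs of same-numbered arrays 20 correlated above 0.1 in their deviations and 19 below -0.1 (median 0.03), and 6 of 20 arrays were closest to one of their own number.

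Values near the floor carry little signal over background, and groups of 3 or 4 piglets of unknown litters limit what a p-value here covers. The S35D and 21W28D labels were not settled.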
